A study of Mus musculus with 48 samples.

Results

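Livers of 12 mice labelled as SHP knockouts and fed the control diet were compared over 4 clock times: 6am, noon, 6pm and midnight, with 3 livers at each. SHP, the small heterodimer partner encoded by Nr0b2, is an orphan nuclear receptor that represses other transcription factors. The 12 libraries are those whose titles carry the knockout and control codes, out of 48 libraries in the series, and the clock time is that of the time label and of the code in the title. The mouse line behind the knockout label is not described further. The mice took a maltose control liquid diet for 10 days and at 9am on day 11 were gavaged with 9 g/kg maltose dextrin, the sugar counterpart of the ethanol binge. Livers were then collected over a 24-hour span in the order 6pm, midnight, 6am and noon. The groups set beside them were 12 libraries of knockout-labelled mice given a 5% ethanol liquid diet and 5 g/kg ethanol, and 12 libraries of wild-type C57BL/6 mice given the control diet and dose, each with 3 livers at each time. The rest of the 48 libraries came from wild-type mice given the ethanol diet and dose. They entered the scale factors and the shared estimate of spread in the fit of 48 libraries, and were not compared. Because each mouse was sampled a fixed number of hours after the dose, clock time and time since the dose cannot be told apart, and no light schedule is stated in the labels. A separate treatment tag names ethanol for the noon and 6pm control libraries, against their titles. The titles were followed, since the tag changes with the time and the study's design has control mice at all 4 times.

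The liver clock is a feedback loop of transcription. BMAL1 (Arntl) pairs with CLOCK or NPAS2 and switches on genes that carry E-boxes, among them those of the PER and CRY proteins and of REV-ERBα and REV-ERBβ (Nr1d1 and Nr1d2). PER and CRY then block BMAL1, and the REV-ERBs repress Arntl, Npas2 and Nfil3 through RORE sites. DBP, TEF and HLF act on D-boxes, and NFIL3 opposes them there. In mouse liver this loop and the daily cycles of feeding, hormones and body temperature drive rhythms in lipid, bile acid, haem and drug metabolism and in heat shock genes.

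The promoter stretches below are shown because these clock genes peaked at different times in the 12 livers and hold the elements that the loop uses. They are the RefSeq sequences on GRCm38.p6, written 5′ to 3′ on the strand of the gene. The first 5 cover the 250 bases before the start site. For Arntl and Nfil3 a shorter stretch around the match is given. Capitals mark the E-box CACGTG in Gm129 (Ciart, a repressor of BMAL1), Cry1, Tef and Per1, the D-box TTATGTAA in Per3, and the RORE core TAGGTCA, or its reverse complement TGACCTA, in Arntl and Nfil3.
Gm129 (Ciart), chr3:95882229-95882478, minus strand: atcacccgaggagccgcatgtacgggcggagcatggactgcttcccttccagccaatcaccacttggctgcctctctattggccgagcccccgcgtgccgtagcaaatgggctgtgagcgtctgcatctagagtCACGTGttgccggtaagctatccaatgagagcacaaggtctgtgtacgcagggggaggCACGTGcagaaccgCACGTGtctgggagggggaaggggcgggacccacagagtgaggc
Cry1, chr10:85185055-85185304, minus strand: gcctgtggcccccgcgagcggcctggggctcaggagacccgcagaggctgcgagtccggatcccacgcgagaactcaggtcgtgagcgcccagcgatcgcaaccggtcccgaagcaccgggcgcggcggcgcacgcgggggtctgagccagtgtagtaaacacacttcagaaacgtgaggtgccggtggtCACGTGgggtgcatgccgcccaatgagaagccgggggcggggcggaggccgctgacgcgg
Tef, chr15:81802423-81802672, plus strand: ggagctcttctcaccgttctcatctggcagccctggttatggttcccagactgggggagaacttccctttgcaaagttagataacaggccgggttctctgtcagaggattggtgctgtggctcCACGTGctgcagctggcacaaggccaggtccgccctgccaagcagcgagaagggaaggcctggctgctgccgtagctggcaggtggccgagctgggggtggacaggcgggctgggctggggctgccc
Per1, chr11:69098699-69098948, plus strand: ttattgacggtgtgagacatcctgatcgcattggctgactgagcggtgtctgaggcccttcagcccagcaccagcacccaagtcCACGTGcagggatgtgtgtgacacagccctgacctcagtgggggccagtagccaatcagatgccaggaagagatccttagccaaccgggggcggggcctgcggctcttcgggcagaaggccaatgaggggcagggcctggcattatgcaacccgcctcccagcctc
Per3, chr4:151044666-151044915, minus strand: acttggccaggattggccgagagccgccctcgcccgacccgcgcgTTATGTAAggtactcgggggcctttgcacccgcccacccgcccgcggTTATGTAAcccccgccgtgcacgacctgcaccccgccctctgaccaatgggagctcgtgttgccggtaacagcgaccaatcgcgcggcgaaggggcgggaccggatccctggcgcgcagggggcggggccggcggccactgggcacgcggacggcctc
Arntl, chr7:113207530-113207558, plus strand: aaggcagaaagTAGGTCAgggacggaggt
Nfil3, chr13:52981034-52981062, minus strand: gcgctcggaacTGACCTActaacacacat
Gm129 held 3 E-boxes, beginning 116, 58 and 44 bases before its start site, and Per3 held D-boxes beginning 205 and 158 bases before its own. The Arntl match began after the start site, at position 31, and the other listed Arntl window held no match. No match overlapped another in these windows. Dbp, Nr1d1, Npas2, Clock and Usp2 held none of the searched motifs within 250 bases before to 50 bases after the RefSeq start.

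RNA was read as FPKM, fragments scaled to gene length and library size, which the authors deposited for 15041 genes. The 12 libraries held 9605636 to 16468264 reads in genes, and a single read on a kilobase of transcript came to 0.0607 to 0.104 FPKM. Alb took 7.55 to 11.3% of reads, and the Spearman correlation between livers of the same time was 0.914 to 0.977. The library of 6pm replicate 0 stood apart. In it 749 genes lay more than 2-fold from the median of the 12 libraries, against 68 to 357 in the other 11. It held 249 FPKM of Lcn2, an acute phase protein gene, against 6.01 to 20.6 in the others, 689 FPKM of the metallothionein gene Mt1 against 8.32 to 96.8, and a summed 1370 FPKM over 13 Kupffer cell markers against 428 to 616. Values without it are given for most lists below and for some named genes whose call it changes. Nr0b2 itself was read in all 12 libraries, at 19.6, 18.6 and 33.9 FPKM at 6am, 26.3, 37.2 and 26.4 at noon, 4.22, 11.3 and 11.6 at 6pm, and 26.1, 21 and 26 at midnight. The 6pm livers were lowest, yet the 4 times did not differ past the threshold (adjusted p = 0.0883, and 0.522 without 6pm replicate 0), and the genotype is taken from the label alone.

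Of 13765 genes tested, 1753 (12.7%) differed among the 4 times at an adjusted p of 0.05 in limma with Benjamini-Hochberg adjustment, the test and threshold used for every call here. The range from the highest to the lowest group mean was over 2-fold in 368 of them. Their peak fell at 6am in 452 genes, at noon in 204, at 6pm in 791 and at midnight in 306, which are 3.28%, 1.48%, 5.75% and 2.22% of all genes tested. Of the called genes 25.8%, 11.6%, 45.1% and 17.5% peaked at these times. The peak and trough fell at 6am and 6pm, in either order, in 889 genes, and at noon and midnight in 226. A 12-hour component exceeded the 24-hour one in 11. Fewer genes were called by a fit of the 12 libraries alone, 1107, of which 836 were among the 1753. Leaving out 6pm replicate 2 left 819 calls and leaving out 6pm replicate 0 left 1197, the 2 lowest counts among 12 such fits, and 453 genes were called in the fit of 48 libraries, the fit of 12 and each fit that left out 1 of the 12. Of these 453, 150 peaked at 6am, 41 at noon, 161 at 6pm and 101 at midnight. The share of peaks at 6pm also depended on scaling. With FPKM as deposited, without scale factors, 615 called genes peaked at 6am, 633 at noon, 315 at 6pm and 181 at midnight. The mean log2 scale factor differed from that of 6am by 0.08 at noon, -0.15 at 6pm and -0.08 at midnight.

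**Figure D1:**
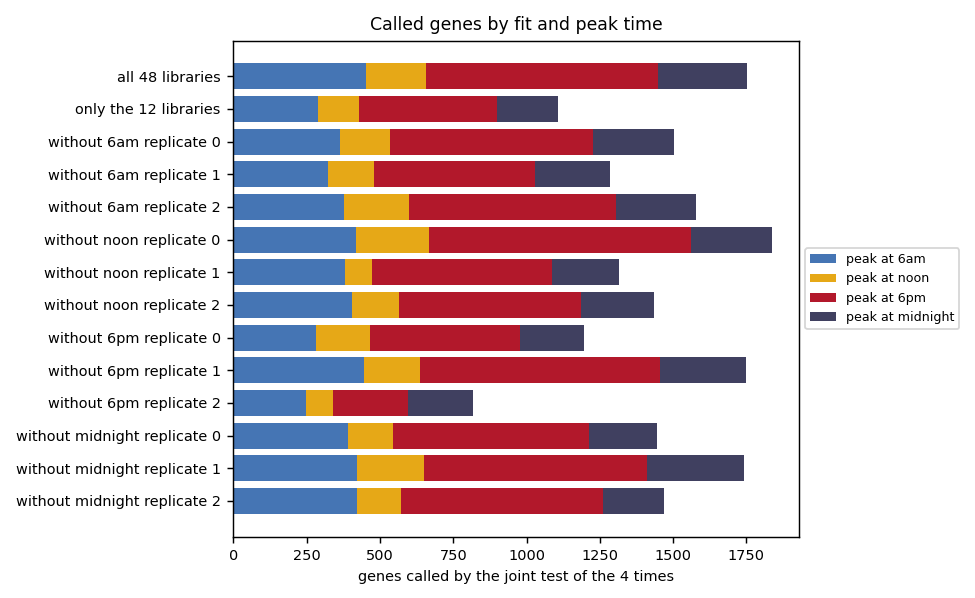
Number of genes called by the joint test of the 4 times (x axis) in the fit of all 48 libraries, in the fit of the 12 knockout-labelled control libraries and without each of those 12 libraries, with colours for the time of the peak. The bars run between 819 and 1838 genes, and the shortest is the fit without 6pm replicate 2.

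The core clock genes cycled with wide ranges. Among activators 4 of 6 were called, with Arntl, Npas2 and Clock among them. Among repressors and their partners 8 of 14 were called, and among output genes 11 of 13, against 12.7% of all genes tested. Of these 23 called genes, 20 were called in the fit of 48 libraries, the fit of 12 and every leave-one-out fit. The median range over the list was 2.08 for activators and 1.33 for repressors on the log2 scale, against 0.36 over all genes tested.

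Arntl (chromosome 7, 113207465 to 113314126, GRCm38) stood at 13.7, 14.8 and 13.8 FPKM at 6am, 4.09, 4.88 and 2.82 at noon, 0.805, 0.85 and 0.964 at 6pm, and 9.85, 8.21 and 10.1 at midnight. No 2 times overlapped, and the range was 9.55-fold (adjusted p = 9.80e-12). Npas2, its partner's stand-in, held 3.97, 4.6 and 3.49 FPKM at 6am, 0.546, 0.576 and 0.101 at noon, 0.0281, 0.0162 and 0.0155 at 6pm, and 0.825, 0.261 and 0.736 at midnight. Its 6am livers lay above and its 6pm livers below all others, while noon and midnight overlapped (range 7.78-fold on the scale with a pseudocount of 0.5 FPKM, adjusted p = 1.12e-11). Clock itself changed less, with a range of 2.69-fold (adjusted p = 8.80e-06), and likewise peaked at 6am. Nfil3, which carries the RORE core shown above, held 21.5, 18.9 and 19.4 FPKM at 6am, 9.51, 9.70 and 7.85 at noon, 7.83, 5.37 and 4.84 at 6pm, and 20.3, 15.3 and 14.7 at midnight, so that 6am and midnight overlapped (adjusted p = 0.00287).

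Nr1d1 (chromosome 11, 98767932 to 98775333), the repressor of Arntl, had 4.15, 2.66 and 1.71 FPKM at 6am, 37.9, 40.3 and 43.7 at noon, 7.88, 7.32 and 3.28 at 6pm, and 0.733, 0.695 and 1.74 at midnight. The noon livers stood far above the rest, and 6am and midnight overlapped (range 24.0-fold, adjusted p = 6.55e-08). Dbp, the D-box activator, held 1.26, 0.588 and 0.729 FPKM at 6am, 29.7, 23.0 and 35.6 at noon, 32.3, 24.8 and 15.5 at 6pm, and 2.58, 2.90 and 4.55 at midnight. Its noon and 6pm livers overlapped, and both lay above all livers of 6am and midnight (range 19.9-fold, adjusted p = 3.48e-09). Nr1d2 followed the same order, with 2.11 to 3.18 FPKM at 6am, 11.3 to 20 at noon, 9.52 to 13.6 at 6pm and 3.18 to 4.68 at midnight (adjusted p = 1.29e-04).

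Gm129, with 3 E-boxes in its promoter, held 0.268, 0.583 and 0.281 FPKM at 6am, 1.07, 1.28 and 1.96 at noon, 6.28, 9.15 and 6.01 at 6pm, and 1.47, 1.78 and 2.12 at midnight. Its 6pm livers lay above all others (range 8.96-fold, adjusted p = 4.58e-06). Tef, a D-box activator with an E-box in the stretch shown, ran from 4.79 to 5.80 FPKM at 6am, 15.5 to 22.7 at noon, 22.8 to 31.6 at 6pm and 16.1 to 19.3 at midnight (adjusted p = 2.68e-08). Per3 was lowest at 6am, with 0.513, 0.532 and 0.273 FPKM, and its noon livers overlapped those of 6pm and midnight, at 2.70 to 4.86 at noon, 3.52 to 6.39 at 6pm and 2.10 to 3.02 at midnight (adjusted p = 4.79e-06). Per1, also a target of the glucocorticoid receptor, held 0.998, 0.703 and 1.20 FPKM at 6am, 2.41, 2.46 and 3.61 at noon, 6.03, 8.78 and 5.64 at 6pm, and 6.82, 7.21 and 3.05 at midnight. Its midnight livers overlapped those of noon and 6pm (adjusted p = 0.0201).

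Per2 held 5.83, 6.26 and 4.90 FPKM at 6am, 6.23, 5.82 and 7.82 at noon, 11.4, 16.1 and 11.6 at 6pm, and 22.0, 18.6 and 22.1 at midnight. Midnight lay above every other liver, and 6am and noon overlapped (range 3.65-fold, adjusted p = 3.88e-07). Cry1, with an E-box beginning 60 bases before its start, held 10.8, 11.2 and 10.9 FPKM at 6am, 3.17, 2.70 and 2.86 at noon, 4.57, 6.16 and 7.44 at 6pm, and 17.0, 15.0 and 20.2 at midnight. No 2 times overlapped (range 5.71-fold, adjusted p = 2.68e-08). Cry2 held 5.07, 5.15 and 4.24 FPKM at 6am, 5.65, 6.63 and 6.95 at noon, 5.63, 7.49 and 5.47 at 6pm, and 7.69, 7.57 and 9.54 at midnight, a narrower range of 1.73-fold with midnight above all others (adjusted p = 0.00667). Among those not called were Rora, Arntl2, Bhlhe40, Bhlhe41, the casein kinase genes Csnk1d and Csnk1e and the ubiquitin ligase gene Fbxl21, with adjusted p of 0.112 to 0.852, and among outputs Rgs16 (0.178) and Tsku (0.169).

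**Figure D2:**
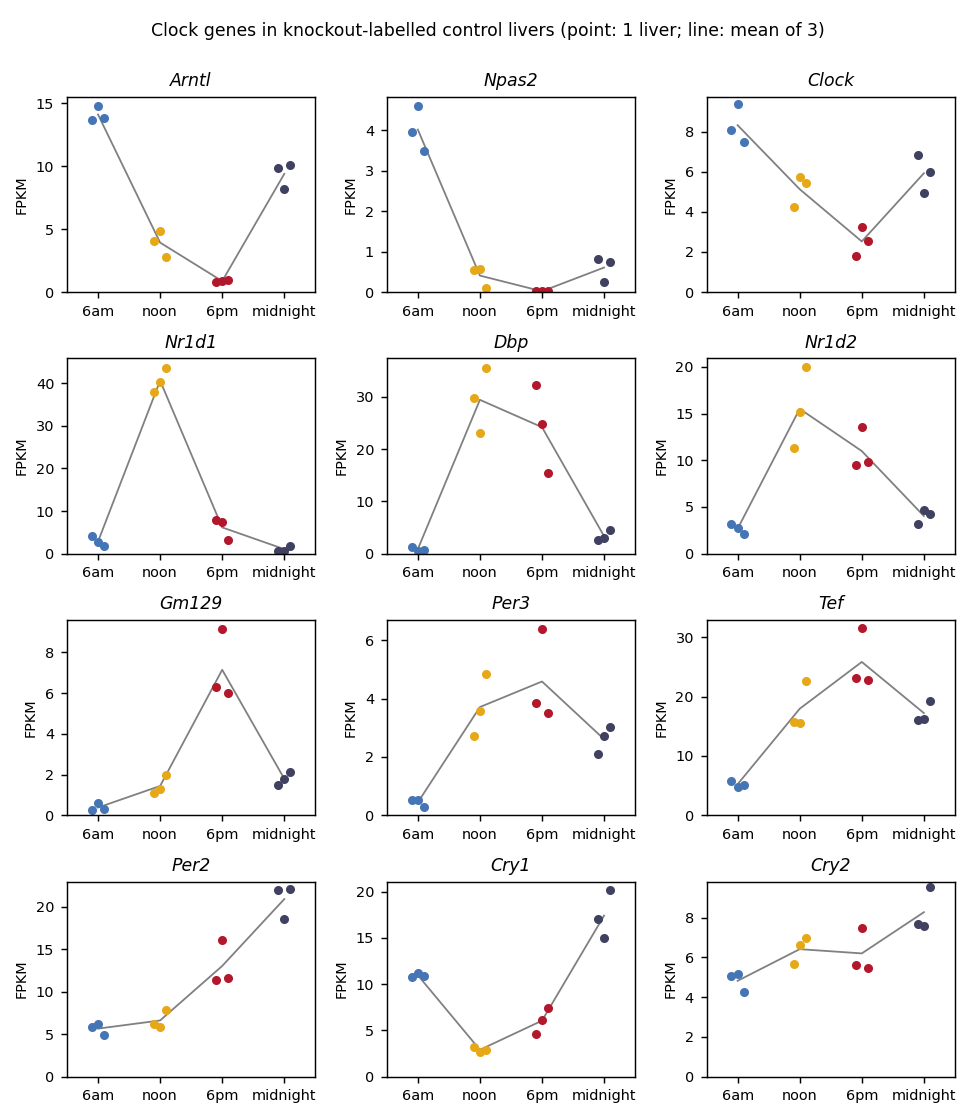
FPKM as deposited (y axis, from 0) of 12 clock genes in each knockout-labelled control liver at 6am, noon, 6pm and midnight, with points for livers and a line through the means of 3. The peaks move from 6am for Arntl, Npas2 and Clock to noon for Nr1d1, Dbp and Nr1d2, 6pm for Gm129, Per3 and Tef, and midnight for Per2, Cry1 and Cry2.

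Output genes of the clock peaked mainly at 6pm, in 8 of the 11 called. Usp2, a deubiquitinase gene, held 0.907, 0.902 and 1.69 FPKM at 6am, 2.07, 2.47 and 2.78 at noon, 11.6, 16.1 and 12.0 at 6pm, and 6.60, 7.23 and 6.09 at midnight. No 2 times overlapped (range 8.91-fold, adjusted p = 7.10e-05). Por, the electron donor of microsomal cytochromes P450, likewise separated all 4 times, with 25.6, 31.3 and 36.3 FPKM at 6am, 62.1, 66.7 and 53.1 at noon, 172, 163 and 198 at 6pm and 108, 82.8 and 83.8 at midnight (range 6.26-fold, adjusted p = 2.86e-05). Nampt, the rate-limiting enzyme of NAD salvage, held 28.7 to 36.4 FPKM at 6pm and 24.6 to 26.5 at midnight, above 10.1 to 15.1 at 6am and noon (adjusted p = 1.61e-05). Wee1, a kinase that restrains mitosis, peaked at 6pm (2.85-fold, adjusted p = 0.015), as did Tspan4 (3.19-fold, 8.75e-05), Hlf (1.87-fold, 0.00532) and the deadenylase gene Ccrn4l (3.66-fold, 0.0341). Ccrn4l was called in 6 of the 12 leave-one-out fits, and Hlf reached an adjusted p of 0.0765 with the 12 libraries alone.

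Besides Arntl and Npas2, genes with wide ranges and a peak at 6am included the following. Elovl3, an elongase of long fatty acids, held 349, 179.7 and 210.1 FPKM at 6am, 81.5, 44.3 and 65.5 at noon, 2.40, 17.2 and 19.8 at 6pm, and 109, 40.6 and 20.8 at midnight. Its 6am livers lay above and its 6pm livers below all others (range 21-fold, adjusted p = 0.00104). Pdk4, the kinase that shuts pyruvate out of the citric acid cycle, ran from 13.9 to 18.5 FPKM at 6am, 5.55 to 9.12 at noon, 0.93 to 2.09 at 6pm and 6.35 to 8.59 at midnight (7.43-fold, adjusted p = 2.19e-04). Ppp1r3c, a glycogen-targeting subunit of protein phosphatase, was at 59.6 to 77.4 FPKM at 6am, 20 to 28.9 at noon, 5.94 to 14.3 at 6pm and 34.4 to 67.3 at midnight (5.95-fold, adjusted p = 1.17e-04). Chka, choline kinase, held 18.3 to 23.4 FPKM at 6am, 7.44 to 11.6 at noon, 2.04 to 2.36 at 6pm and 12.2 to 15.1 at midnight (6.96-fold, adjusted p = 2.34e-07). Of 20 genes of one-carbon metabolism 3 were called, 15% against 12.7% of all genes tested, and the same 3 without 6pm replicate 0. Cbs, which starts the path from homocysteine to cysteine, held 132 to 146 FPKM at 6am, 132 to 145 at noon, 49.6 to 72.0 at 6pm and 78.8 to 105 at midnight (2.10-fold, adjusted p = 2.06e-04). In Pdk4, Ppp1r3c, Chka and Cbs the 6pm livers lay below all others. The nuclear receptor gene Ppard held 12.8, 15.6 and 12.6 FPKM at 6am but 2.63, 3.69 and 2.33 at noon and 1.86 to 2.21 at 6pm, and was back at 7.26 to 9.95 at midnight (adjusted p = 5.75e-09). Loxl4, a lysyl oxidase gene, had 4.41, 10.1 and 7.08 FPKM at 6am, above 2.52 or less at every other time (8.86-fold, adjusted p = 1.63e-10).

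Fewer genes peaked at noon, and those with wide ranges after Nr1d1, Dbp and Nr1d2 were of mixed kind. Fads3, of the fatty acid desaturase family, held 34.4, 36.4 and 48 FPKM at noon, above 6.30 to 21.2 at the other times (4.23-fold, adjusted p = 0.00616). Mmp12, a macrophage metalloproteinase gene, held 4.66, 6.43 and 5.92 FPKM at noon against 0.669, 1.15 and 1.16 at 6am (3.82-fold, adjusted p = 5.64e-04). Of 22 immediate early genes, which respond within minutes to signals, 2 were called (9.09%, against 12.7% of all genes tested) and both peaked at noon: Junb at 11.2, 15.6 and 16 FPKM (adjusted p = 0.0143), and Klf6 at 5.84, 9.26 and 9.15 (0.034). In both genes 1 liver of another time lay within the noon range, at 11.5 FPKM at 6pm for Junb and 7.18 FPKM at 6am for Klf6. Leaving out 6pm replicate 0 gave 3 calls among the 22, with these 2 genes among them. Leaving out 6pm replicate 2 gave 1, and the 12 libraries alone gave 4, of which 1 was among these 2. Klf6 was called in 7 of the 12 leave-one-out fits.

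Of 12 genes of haem synthesis and breakdown 5 were called (41.7%, against 12.7% of all genes tested), 4 of them with a peak at 6pm. Of the 5, 2 were called without 6pm replicate 0. Alas1, the rate-limiting enzyme of haem synthesis, held 18.6, 30.5 and 43.0 FPKM at 6am, 58.6, 56.1 and 35.4 at noon, 217, 144 and 177 at 6pm, and 157, 85.7 and 45.0 at midnight. Midnight overlapped 6pm and noon (range 6.63-fold, adjusted p = 0.00277). Fkbp5, a co-chaperone gene that glucocorticoids induce, stood at 35.9, 28.7 and 35.0 FPKM at 6pm and 18.6, 15.1 and 15.8 at midnight, above 3.67 to 6.81 at 6am and noon (7.14-fold, adjusted p = 8.09e-05). Of 16 glucocorticoid targets 3 were called (18.8%, against 12.7% of all genes tested), Fkbp5, Per1 and Angptl4, all with a peak at 6pm. With the 12 libraries alone 8 were called, 7 of them at 6pm. Leaving out 6pm replicate 0 gave 3 calls, 2 of them among the 3 named, and leaving out 6pm replicate 2 gave 1. Bnip3, a mitophagy receptor gene, held 32.5, 40.9 and 43.9 FPKM at 6pm, above 12.2 to 27.3 at the other times (2.98-fold, adjusted p = 3.70e-04). Nr1i3, which encodes the drug sensor CAR, held 29.5 to 41.2 FPKM at 6am, 22.0 to 29.2 at noon, 49.3 to 95.5 at 6pm and 53.8 to 56.1 at midnight, with 6pm and midnight overlapping (adjusted p = 4.54e-05).

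Lists of fatty acid, glucose and glycogen metabolism were called at 13.9 to 16.7%, near the 12.7% of all genes tested. Of 26 genes of fatty acid and triglyceride synthesis 4 were called: Elovl3, Insig2 and Gpam with a peak at 6am and the lipase gene Pnpla3 at midnight. Without 6pm replicate 0 Elovl3 alone of these was called, and the adjusted p was 0.156 for Gpam and 0.101 for Pnpla3. Insig2, which holds back the activation of SREBP, held 162 to 204 FPKM at 6am, 108 to 126 at noon, 30.5 to 43.9 at 6pm and 96.7 to 138 at midnight (adjusted p = 0.00548, and 0.0543 without that library). Of 36 genes of fatty acid oxidation 5 were called, 4 of them at 6pm, with 2 called without 6pm replicate 0 and 1 without 6pm replicate 2. Angptl4, an inhibitor of lipoprotein lipase, held 26.8, 28.8 and 27.6 FPKM at 6pm, above 5.27 to 13.9 at the other times (adjusted p = 0.0249, and 0.0598 without 6pm replicate 0). Cpt1a, the gate of mitochondrial fatty acid oxidation, held 117 to 151 FPKM at 6am, 163 to 207 at noon, 169 to 214 at 6pm and 96.8 to 108 at midnight (adjusted p = 0.048, and 0.0696 without 6pm replicate 0), a call kept in 2 of the 12 leave-one-out fits. Of 27 genes of glucose handling 4 were called, and the same 4 without 6pm replicate 0. Pfkfb3, whose product raises fructose 2,6-bisphosphate, held 3.91, 5.89 and 6.86 FPKM at 6pm, above 1.32 to 3.82 at the other times (adjusted p = 4.28e-04), and Slc37a4, the glucose 6-phosphate carrier, held 99.9, 144 and 146 (adjusted p = 0.00497). Gys2, liver glycogen synthase, was also highest at 6pm, at 85.2, 145 and 122 FPKM (adjusted p = 0.0133). Of 12 genes of glycogen metabolism 2 were called, 1 with a peak at 6am and 1 at 6pm. Without 6pm replicate 2 the list kept 1 call, with a peak at 6am.

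Of 25 bile acid genes 4 were called (16%, against 12.7% of all genes tested), 3 with a peak at 6am and Cyp7a1 at 6pm. Leaving out 6pm replicate 0 gave 2 calls, 1 of them among these 4. Cyp7a1, the rate-limiting enzyme of bile acid synthesis and a target that SHP represses, held 56.6, 57.3 and 33.6 FPKM at 6am, 57.5, 48.3 and 48 at noon, 129, 172 and 133 at 6pm, and 56.0, 48.1 and 46.5 at midnight. The 6pm livers lay above all others (3.29-fold, adjusted p = 0.0295). The 2 remaining 6pm livers gave an adjusted p of 0.0607 without replicate 0. Hsd3b7, a later enzyme of the same pathway, was lower at 6pm and midnight, at 47.9 to 67.3 FPKM, than at 6am and noon, at 99.6 to 122 (adjusted p = 3.61e-05). Abcb11, the bile salt export pump, held 50.0, 98.3 and 90.6 FPKM at 6pm, below 178 to 278 at the other times (adjusted p = 0.00801, and 0.142 without 6pm replicate 0). Cyp8b1, which sets the share of cholic acid, was not called (adjusted p = 0.741).

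Of 21 heat shock genes tested, 14 were called (66.7%, against 12.7% of all genes tested), 13 of them with a peak at midnight. Also 13 were higher at midnight than at noon, which were 12 of these, without Hspb1, and Dnajb1. The median difference between midnight and noon was 0.71 on the log2 scale, against 0.01 over all genes tested. Hsph1, a large cytosolic chaperone, held 9.27, 11.2 and 10.7 FPKM at 6am, 5.24, 6.15 and 6.87 at noon, 7.30, 7.25 and 7.68 at 6pm, and 21.4, 14.2 and 18.5 at midnight. No 2 times overlapped (range 3.09-fold, adjusted p = 2.79e-04). Hsp90aa1, the inducible HSP90, held 19.7, 15.1 and 13.9 FPKM at midnight, above 9.59 to 11.9 at 6am and 4.78 to 7.53 at noon and 6pm (2.71-fold, adjusted p = 4.18e-05). Hspa4l, of the HSP110 family, stood at 5.66 to 6.69 FPKM at midnight and 1.87 to 4.19 at the other times (2.42-fold, adjusted p = 1.93e-06). The HSP90 co-chaperone genes Stip1 (58.9 to 66.7 FPKM at midnight, 28.7 to 49.0 at other times), Chordc1 (28.2 to 35.7 and 13.0 to 25.8), Ahsa1 (75.5 to 89.8 and 52.7 to 63.8) and Fkbp4 (93.3 to 99.2 and 48.5 to 80.6) showed the same separation. These 4, Dnajb1, Cirbp and Hsf1 were named after their values were seen.

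Of the heat shock genes, 10 were called in the fit of 12 libraries and in every fit that left out 1 of them, and 13 were called without 6pm replicate 0, all with a peak at midnight. With FPKM as deposited 12 were called, 11 of them with a peak at midnight. In wild-type controls 10 of the 21 were called. Cirbp, which cold induces, was the called member with the opposite course, at 3.28, 5.31 and 3.90 FPKM at midnight and 8.56, 8.61 and 7.53 at noon (adjusted p = 0.0374, 0.073 without 6pm replicate 0, kept in 6 of the 12 leave-one-out fits). The gene of the heat shock factor, Hsf1, was not called, at 8.22 to 10.4 FPKM at midnight and 8.11 to 9.34 at noon (adjusted p = 0.616). Among 25 chaperones of the endoplasmic reticulum and genes of the unfolded protein response none was called.

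**Figure D3:**
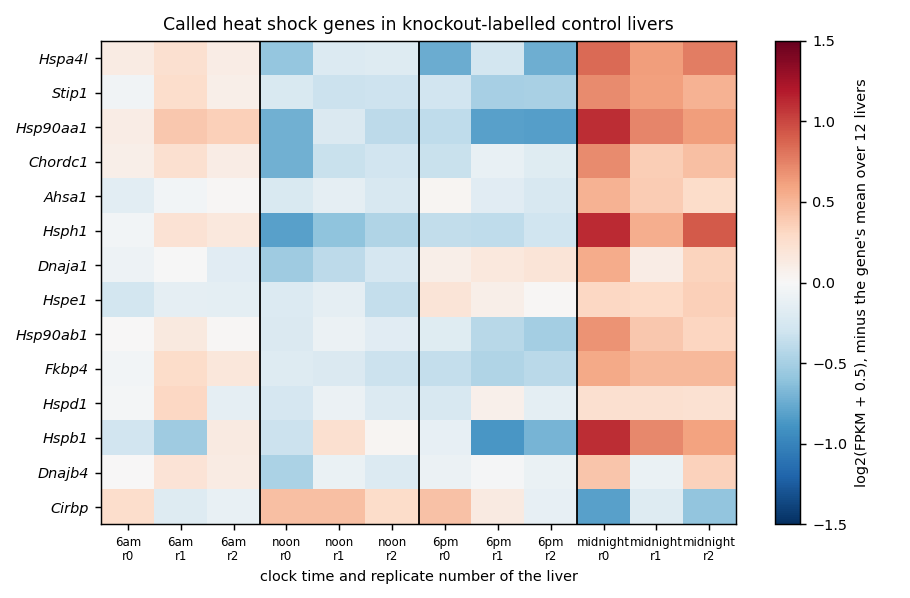
Log2(FPKM + 0.5) of the 14 called heat shock genes, FPKM as deposited, minus each gene's mean over the 12 knockout-labelled control livers (colour), with a column for each liver in the order 6am, noon, 6pm, midnight. In 13 genes the midnight livers are the highest on average, and Cirbp in the last row is highest at noon.

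Calls among ribosomal, respiratory chain and proteasome genes depended on the libraries. Of 33 large-subunit ribosomal protein genes 14 were called (42.4%, against 12.7% of all genes tested), 13 with a peak at 6pm. The median difference of the 33 between 6pm and 6am was 0.45 on the log2 scale. Rpl32 held 259, 168 and 181 FPKM at 6pm against 124, 140.3 and 152 at 6am (adjusted p = 0.00327). With the 12 libraries alone, 3 of the 14 were called, with 3 called without 6pm replicate 0 and 2 without 6pm replicate 2. Of 34 nuclear-coded respiratory chain genes 14 were called (41.2%), all at 6pm. Cox6b1, of complex IV, held 375, 359 and 373 FPKM at 6pm against 284, 283 and 249 at 6am (adjusted p = 0.00528). Here 20 were called without 6pm replicate 0, but 4 without 6pm replicate 2 and 1 with the 12 libraries alone. Of 30 proteasome genes 9 were called (30%), 8 at 6pm, with none called without 6pm replicate 0 and 1 without 6pm replicate 2. Psmb4 had 157 FPKM in that library, and 95.4 and 94.7 in the other 6pm livers, just below the 96.7 to 106 of noon (adjusted p = 0.0128, and 0.133 without that library). Processed copies of many ribosomal and respiratory chain genes can share their reads. With FPKM as deposited 5 ribosomal, 7 respiratory chain and 9 proteasome genes were called, and the medians of the difference between 6pm and 6am stayed above 0, at 0.32, 0.26 and 0.13.

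Of 24 interferon response genes 5 were called (20.8%, against 12.7% of all genes tested). All 5 peaked at 6pm, as did 45.1% of all called genes. Usp18, a brake on interferon signalling, held 19.8, 11.1 and 20.9 FPKM at 6pm against 5.52, 5.96 and 5.12 at 6am (adjusted p = 1.10e-04), and was the member still called without 6pm replicate 0 (0.0012). Ifit3 had 15.6 FPKM in that library, and 5.79 and 8.42 in the other 6pm livers (adjusted p = 0.0242, and 0.274 without it). The summed interferon list was 360 FPKM in that library and 121 to 205 in the other 11, and the summed Kupffer markers moved with it as given above. Their part in the result was not tested.

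Cell cycle genes were called in 9 of 30 (30%, against 12.7% of all genes tested), with 6 at 6am. Leaving out 6pm replicate 0 gave 11 calls, 8 of them among these 9. Here a single liver was high: Cdc20, an activator of the anaphase-promoting complex, held 5.51, 8.21 and 26.6 FPKM at 6am, 15.4, 12.2 and 5.20 at noon, 2.59, 1.37 and 0.397 at 6pm, and 4.01, 4.51 and 0.302 at midnight. The 6am livers overlapped those of noon, and 6pm lay below both (adjusted p = 0.00168, and 0.0729 with the 12 libraries alone). Mki67 likewise held 7.40 FPKM in 6am replicate 2 and 1.44 and 2.98 in the other 6am livers (adjusted p = 0.0328). Of these 9 genes, Wee1 was the only one called with the 12 libraries alone.

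Of 14 growth hormone and STAT5 target genes 4 were called (28.6%, against 12.7% of all genes tested), with differing peaks. The same 4 were called without 6pm replicate 0. Igfals held 41.3, 32.2 and 30.0 FPKM at midnight against 13.6, 19.3 and 17.4 at 6am (adjusted p = 0.0154), and Igf1 was higher at 6pm and midnight, at 38.9 to 58.1 FPKM, than at noon, at 28.5 to 31.8 (adjusted p = 0.0011). Stat5b, which carries the hormone's signal, ran the other way, with 13.9 to 15.9 FPKM at 6am, 12.0 to 14.6 at noon, 6.85 to 8.01 at 6pm and 10.2 to 13.2 at midnight (adjusted p = 0.00175). Of 19 antioxidant genes of the NRF2 programme 6 were called (31.6%) at differing times. Leaving out 6pm replicate 0 gave 4 calls, of which 3 were among the 6. Leaving out 6pm replicate 2 gave 2, and the 12 libraries alone gave 2, both with a peak at 6am. Of the 6, 0 were called in the fit of 12 and every leave-one-out fit. Gclc, the limiting enzyme of glutathione synthesis, held 150.0 to 175 FPKM at 6am, 93.2 to 147 at noon, 37.3 to 47.4 at 6pm and 91.3 to 118 at midnight (adjusted p = 0.0216, and 0.0804 without 6pm replicate 0). Srxn1 peaked at noon (adjusted p = 0.0181, kept in 8 of the 12 leave-one-out fits but not with the 12 libraries alone). Of 26 drug metabolising cytochromes and their receptors 6 were called (23.1%), and 4 without 6pm replicate 0. Cyp2e1, the microsomal ethanol oxidase, held 1378, 1042 and 1131 FPKM at 6am, 1995, 1185 and 1694 at noon, 2391, 2144 and 3190.1 at 6pm, and 1668, 1421 and 1595 at midnight. The 6pm livers lay above all others (2.39-fold, adjusted p = 0.00655, and 0.0676 with the 12 libraries alone).

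**Figure D4:**
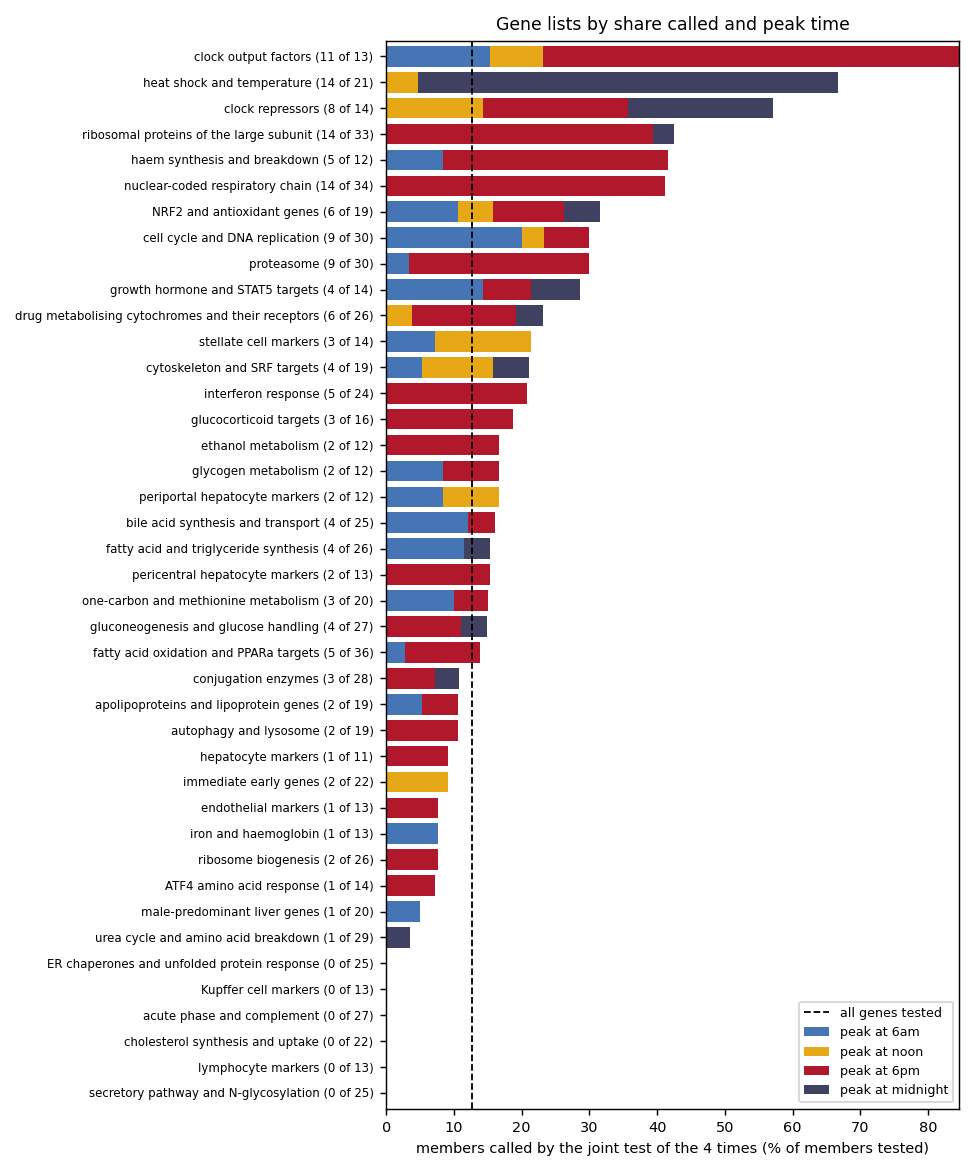
Share of tested members called by the joint test (x axis, percent) for each list with 10 or more tested genes, with the counts in the labels, colours for the peak time and a dashed line at the 12.7% of all genes tested. Clock outputs and heat shock genes reach the highest shares, 84.6% and 66.7%, and 6 lists have no called member.

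Besides the list of endoplasmic reticulum chaperones, no gene was called among cholesterol synthesis and uptake (22 tested), ketone body metabolism, mitochondrial-coded genes, acute phase and complement (27), secretory pathway and glycosylation (25, of which 1 was called without 6pm replicate 0), and the markers of Kupffer cells (13), lymphocytes (13), neutrophils and red cells. The 6 Cyp4a genes, whose fatty acid hydroxylases the series' title names, were not called either, with adjusted p of 0.608 to 0.99. Cyp4a10 held 28.2, 18.7 and 8.07 FPKM at 6am, 18.2, 6.84 and 11.2 at noon, 37.9, 19.6 and 23.3 at 6pm, and 8.38, 13.2 and 41.1 at midnight, and the 4 times overlapped. Their reads may be shared, as several of these genes are near-identical. Ppara, the receptor that drives them, was at 25.1 to 44.1 FPKM throughout (adjusted p = 0.929). Stellate cell markers had 3 of 14 called (21.4%, against 12.7% of all genes tested), and 2 without 6pm replicate 0. Among them Pdgfrb held 2.44, 2.53 and 1.03 FPKM at 6pm, against 5.09, 6.23 and 5.46 at noon (adjusted p = 0.00513), and in whole liver fewer cells of a type and less RNA per cell cannot be told apart.

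Between 6pm and 6am 14.6% of genes were called, the most of the 6 pairs except without 6am replicate 1, when 994 genes were called against 1041 between 6pm and noon. Of the 14.6%, 1101 genes (8%) were higher and 908 (6.6%) lower at 6pm. The split turned with scaling, to 536 higher and 1475 lower with FPKM as deposited. Between 6pm and noon 7.86% were called, as 632 genes (4.59%) were higher and 450 (3.27%) lower at 6pm, and between midnight and 6pm (4.45%) 352 (2.56%) were higher and 260 (1.89%) lower at midnight. Between midnight and noon (2.54%) 234 (1.7%) were higher and 116 (0.843%) lower at midnight. Few genes were called between the other neighbouring times, with 10 genes (0.0726%) higher and 25 (0.182%) lower at noon than at 6am (0.254% in all), and 25 (0.182%) higher and 14 (0.102%) lower at midnight than at 6am (0.283% in all). The largest rises from 6am at noon were Nr1d1, Dbp and Nr1d2, and the largest falls Npas2, Ppard and the transcription factor gene Pitx3. With FPKM as deposited, 94 genes were higher and 324 lower at midnight than at noon, and 164 higher and 1264 lower at 6pm than at noon. Single libraries moved these counts: without 6pm replicate 2 185 genes were called between 6pm and noon, without 6pm replicate 0 201 between midnight and 6pm, and without midnight replicate 2 98 between midnight and noon and 5 between midnight and 6am. The 6 pairs share libraries and are not independent.

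Wild-type controls gave 1148 called genes (8.34%) in the same test, and no library was shared by the arms. Both arms called 523 genes, 29.8% of the knockout-labelled and 45.6% of the wild-type calls, and 373 of these (71.3%) peaked at the same time. A test of the difference in time course called 9 genes (0.0654%), with 1072 at an unadjusted p under 0.05, and 0 by voom on the recovered reads. None of the clock genes was among the 9 (adjusted p of the difference 0.429 for Per3 and 0.506 for Cry1, the lowest of those plotted). Peak hours from a 24-hour cosine through the 4 means were earlier in knockout-labelled than in wild-type controls in 19 of the 21 clock genes called in both arms, by a median of -0.8 hours, with single genes between -1.9 and 0.8 hours. Arntl peaked at hour 4.5 in knockout-labelled livers and at hour 5.3 in wild-type livers, Per3 at 17.6 and 19.5, and Cry1 at 1.0 and 2.5. The exceptions were Per1 and Lonrf3. The median difference stayed between -0.9 and -0.6 hours under every setting that fitted both arms. The count of earlier genes fell to 17 of 21 without 6am replicate 2 or 6pm replicate 1. Only knockout-labelled control libraries were left out in these fits, and no wild-type library was. Over all 523 genes called in both arms it was -0.8 hours as well. These genes come from the same livers and are not independent, with 4 times the hour rests on 4 means, and the difference was not tested as a whole. Amplitudes differed by a median of 0.03 on the log2 scale for the 21 genes.

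The time course in knockout-labelled ethanol mice differed from that in knockout-labelled controls in 1508 genes (11%). Arntl averaged 10.1, 0.561, 3.12 and 8.37 FPKM at 6am, noon, 6pm and midnight in ethanol livers, and 14.1, 3.93, 0.873 and 9.39 in control livers, so that its trough fell at noon with ethanol and at 6pm without (adjusted p of the difference = 2.41e-06). Gm129 averaged 0.911, 9.01, 3.00 and 1.15 FPKM at these times in ethanol livers, and 0.377, 1.44, 7.14 and 1.79 in control livers, with its peak at noon against 6pm (2.21e-04). Tef shifted the same way, with 9.39, 31.6, 16.1 and 11.6 FPKM in ethanol livers and 5.23, 18, 25.9 and 17.2 in control livers (2.21e-04). In Arntl, Gm129 and Tef the ethanol mean of noon lay nearer to the control mean of 6pm than of noon. The ethanol mean of 6pm lay nearer to the control mean of noon. These genes were picked from those with the lowest adjusted p of this same test, so a difference between the arms was given by the choice. Adh5 and Gne, picked the same way, had the same order of means, and Dtx4 had it at noon but not at 6pm. The treatment tag of the control libraries goes against their titles at noon and 6pm, but it names a treatment and not a time. The comparison rests on the titles, and an error of labels was not tested.

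**Figure D5:**
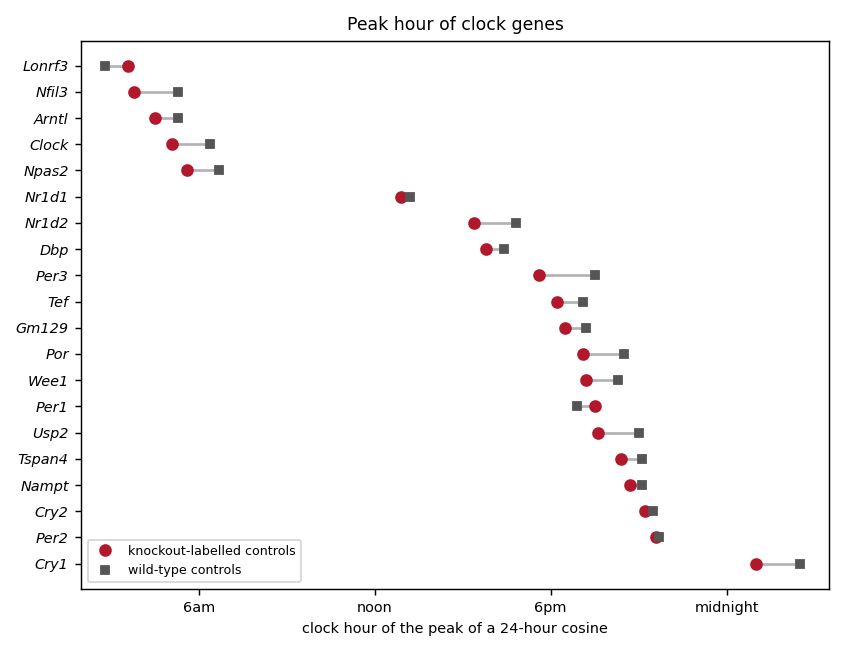
Clock hour of the peak of a 24-hour cosine (x axis) for 20 of the clock genes called in both arms, with circles for knockout-labelled controls and squares for wild-type controls. The circles lie earlier in 18 of these, with a median difference of -0.8 hours.

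Promoter motifs were counted over the 9229 tested genes matched by symbol to a RefSeq promoter, on either strand. CACGTG was present in 77 of 532 promoters of called genes with a peak at 6pm (14.5%), 30 of 303 at 6am (9.9%), 17 of 150 at noon (11.3%) and 21 of 196 at midnight (10.7%), and in 11.7% of all. Among genes called in the fit of 48, the fit of 12 and every leave-one-out fit it was in 18.6% of 102 promoters at 6pm, 13.9% of 101 at 6am, 0 of 28 at noon and 6.94% of 72 at midnight, and the 6am share then lay above the 11.7% of all genes, not below it. TTATGTAA or TTACGTAA was found in 8 of 196 promoters with a peak at midnight (4.08%), among them Prlr, Ptgds and Wnt5b, and in 0.964% of all. The share was 0% at 6am, 0.667% at noon and 1.5% at 6pm. TAGGTCA was found in 16 of 303 with a peak at 6am (5.28%), among them Arntl, Nfil3, Abcb11 and Stat5a, and in 2.54% of all. At noon, 6pm and midnight its share was 3.33%, 1.69% and 2.55%. GAANNTTC, the core of the heat shock element, was found in 9.18% of 196 promoters with a peak at midnight, Hsph1 among them, and in 7.28% of all. It was in 8.25% at 6am, near the midnight share, and in 7.33% at noon and 5.83% at 6pm. These are counts of letters, and a match is not a bound site.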

How the data were processed

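Livers of 48 mice were sequenced, in 16 groups of 3. RNA was poly(A)-selected and read with 50-cycle single reads from a kit that does not mark strand, per the labels' protocols. The authors deposited FPKM per gene, and the submitters' processing notes name Novoalign and GRCm38. Columns left without a sample numbered 0.

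Dividing out each gene's step gave whole reads for 100.00% of 15041 genes (tolerance 1e-09). From those reads TMM scale factors were computed (0.8805 to 1.24 in the 12 libraries). Genes with at least 0.5 FPKM in 3 libraries were kept (13765 genes). limma 3.58.1 in R 4.3.3, with a trend, was fitted to log2(scaled FPKM + 0.5) of all 48 libraries, so that all groups share 1 estimate of the spread. Time was tested jointly and by pair, with Benjamini-Hochberg adjustment over all genes and a threshold of 0.05. Voom on the recovered reads called 1555 genes in the joint test. The scripts were tested on simulated data. Fold ranges are on the scaled log2 scale with the pseudocount and understate low genes. FPKM given per liver are as deposited.

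Named genes are the 10 called genes with the widest range at each peak time (mean of at least 1 FPKM), all members of the clock lists, up to 4 called members of every other list, the 3 largest rises and falls of each pair, the 10 with the smallest adjusted p of each difference in time course, and Nr0b2, the Cyp4a genes, Ppara, Cyp7a1, Cyp8b1, Cyp2e1 and Alas1. From these the text describes a choice. Lcn2, Mt1, Prlr, Wnt5b and 7 heat shock genes fall outside the rule and were named after their values were seen. The libraries, lists and rule were chosen with earlier results of these data known. The 3 livers of a group are separate mice per the series' design text. Chi-square tests between knockout-labelled control livers of the same time found no repeated library among them (13.6 to 98.5 per degree of freedom). Whether a library was repeated across times or groups was not tested. Promoters come from RefSeq, GRCm38.p6, and gene positions from GENCODE M21. Replicate numbers were not used to pair the samples. Some genes the rule names are not reported here.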

Additional observations from a re-analysis of the deposited data

Results flagged for a closer look

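A test of the difference between time courses picked out the genes below, and no explanation was tested. Means are given in the order 6am, noon, 6pm, midnight, and p-values are adjusted by Benjamini-Hochberg in limma. Between knockout-labelled and wild-type controls 9 genes differed. Gm10800, a predicted gene in a repeat, averaged 19.3, 11.0, 0.136 and 30.2 FPKM in knockout-labelled livers and 3.35, 0.477, 8.06 and 1.24 in wild-type livers (0.0299). Cox7c, a subunit of complex IV, averaged 9.22, 7.71, 11.3 and 8.44 FPKM in knockout-labelled livers and 9.50, 13.6, 7.22 and 8.80 in wild-type livers (0.0299). Brp44l, which encodes a mitochondrial pyruvate carrier subunit, averaged 10.9, 9.48, 13.1 and 12.3 FPKM in knockout-labelled livers and 8.87, 12.3, 7.12 and 8.70 in wild-type livers (0.0299). Reep6 averaged 216, 210.3, 233 and 228 FPKM in knockout-labelled livers and 197, 209, 102 and 185 in wild-type livers (0.0307). The others were D430001F17Rik (0.0299), Atp5l, mt-Ts2 and Gm11788 (0.0307 each) and Gm3452 (0.0378). By voom 0 genes differed, and 1072 had an unadjusted p under 0.05.

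Between ethanol and control in knockout-labelled mice 1508 genes differed, and the 10 with the lowest adjusted p, among genes averaging at least 1 FPKM, included the clock genes Arntl (2.41e-06), Gm129 and Tef (2.21e-04 each). Dtx4 averaged 2.98, 0.866, 1.73 and 4.05 FPKM in ethanol livers and 5.46, 3.57, 1 and 4.21 in control livers (2.35e-05). Adh5, an alcohol dehydrogenase family gene, averaged 119, 152, 136 and 98.6 FPKM in ethanol livers and 129, 131, 159 and 155 in control livers (2.21e-04). Gne, of sialic acid synthesis, averaged 25.5, 31.9, 17.2 and 15.5 FPKM in ethanol livers and 16.6, 21.8, 29.1 and 20.6 in control livers (2.21e-04). The others were Loxl4 (3.62e-04), 1190003J15Rik and Fgf1 (3.68e-04 each) and Nupr1 (4.19e-04).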

How the results depend on the processing

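With FPKM as deposited, 633 called genes peaked at noon, 315 at 6pm and 181 at midnight, and 2343 genes differed in time course between ethanol and control. With the 12 libraries alone, 1107 genes were called jointly, 288 with a peak at 6am and 473 at 6pm, and 223 differed between midnight and noon. The difference from wild-type controls was called in 4 genes with a replicate block and 0 by voom. The block gave 1740 joint calls. Deviations of same-numbered samples correlated at -0.45 to 0.46, and over 0.1 in 4 of 18 pairs. These values cannot show whether samples of equal number share a batch. Leaving out 1 library gave 819 to 1838 joint calls, with 247 to 445 peaks at 6am, 93 to 248 at noon, 255 to 895 at 6pm and 206 to 330 at midnight. It gave 16 to 40 calls between noon and 6am, 994 to 2276 between 6pm and 6am, 5 to 58 between midnight and 6am, 185 to 1293 between 6pm and noon, 98 to 391 between midnight and noon and 201 to 732 between midnight and 6pm. The difference from wild type was called in 0 to 20 genes and that from ethanol in 686 to 1801. Without 6pm replicate 0 the uncalled differences of Cyp4a12a and Cyp4a12b between their peak and trough times changed sign, to -0.27 and -0.39, and over the libraries left out they reached 0.61 and 1.40. The cause was not tested. With 3 livers a time, and a single read on a kilobase worth up to 0.104 FPKM, small changes of low genes were not detectable.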
